A study of Mus musculus with 6 samples.

Results

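*Apoe* (ENSMUSG00000002985) was followed across every cell class of 6 single cell RNA-seq libraries of mouse spleen, and it is 1 of the 31053 features counted in each library. The gene was chosen with its level in germinal center (GC) and plasma cells already known, so its levels across cell classes are given as a description, with no test. Only the comparison of genotypes was tested, and that test too was chosen with earlier results of these data known. The libraries came from sorted splenic cells of mice immunized with sheep red blood cells (SRBC), an antigen that drives GC formation. All mice carried *Cγ1*-Cre, a recombinase under control of the *Ighg1* locus that becomes active in B cells as they enter the GC. Of the 6 libraries, 3 were labelled WT for *Smc3* (WT replicates 1 to 3) and 3 were labelled *Smc3* +/- (*Smc3* +/- replicates 1 to 3). *Smc3* encodes a core subunit of cohesin. The *Smc3* +/- mice lack 1 functional copy of the gene in cells in which Cre has been active, so cells without Cre activity, such as T cells or macrophages of the same library, are not a model of the loss. Cells were taken 8 days after SRBC. The study sorted as many *Smc3* +/- mice as there are *Smc3* +/- libraries and more WT mice than there are WT libraries here, but which mice a library holds, their ages and the gate of the sort were not stated in the sources used here.

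ApoE is a secreted apolipoprotein that packages cholesterol and phospholipid into particles. It is taken up through lipoprotein receptors, and liver cells and tissue macrophages are its best known sources. In macrophages the gene is a target of the liver X receptors (LXR), which sense oxysterols and switch on cholesterol efflux. In the GC, B cells cycle between the dark zone, where centroblasts (CB) divide and mutate their antibody genes, and the light zone, where centrocytes (CC) compete for T cell help. Selected cells induce *Myc* and return to the dark zone (recycling) or leave as memory B cells or plasma cells (PC), while tingible body macrophages clear the many B cells that die.

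In the GRCm38 (mm10) build *Apoe* lies on the minus strand at chr7:19696109-19699188, a protein-coding gene that no other annotated gene overlaps. *Tomm40*, which encodes a mitochondrial import channel, lies 2125 bp to one side, and *Apoc1*, another apolipoprotein gene, 3449 bp to the other. The libraries held between 5223325 and 35354257 unique molecular identifiers (UMIs, 1 per captured transcript molecule) and between 1011 and 4963 cells after quality filters, 20809 cells in all. *Apoe* accounted for 80500 UMIs in these cells. At least 1 *Apoe* UMI was present in 63.8% of them, before any correction for depth. Levels are given below as counts per 1000000 UMIs (CPM), on UMIs summed over the cells of a class in a library.

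The labels call all samples GC B cells, and cells with GC B cell transcripts made up most of 5 libraries. *Smc3* +/- replicate 2 stood apart, since immunoglobulin (Ig) transcripts took up 60.6% of its UMIs while no other library exceeded 4.47%. Of its 3558 cells, 1743 were plasma-lineage cells, and it held 495 of the 547 monocyte-like cells. Whether this library was sorted like the others was not stated, so in the genotype comparisons that include it a difference in sorting and one in genotype cannot be told apart. *Xist* and Y-linked transcripts showed WT replicates 1 and 2 and *Smc3* +/- replicate 2 to be male and the other 3 libraries female. *Smc3* itself, the targeted gene, stood at 162, 175 and 159 CPM in CB-like cells of WT replicates 1 to 3 and at 159, 116 and 192 CPM in *Smc3* +/- replicates 1 to 3. The edgeR estimate for the difference was -0.04 on the log2 scale, with an SE of 0.17 and an adjusted p of 1.0. A lower *Smc3* level in *Smc3* +/- libraries was thus not detected. The targeted part is exon 4, while the chemistry used captures transcript ends, and where the counted reads lie was not examined, so these counts neither check the deletion nor the labels. There were 242 cell barcodes shared by more than 1 library (486 cells, 2.34% of the total), and *Apoe* stood at 571 CPM in them and at 554 CPM in all other cells.

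Clusters were built without *Apoe*, its neighbours and the receptor, efflux and sterol gene lists used here, and were named from marker genes, with the ending "-like" because the names rest on transcripts alone. The GC classes were CB-like cells (5870 cells, led by mitotic genes), GC B cells in S phase (4484 cells, led by replication genes such as *Mcm6*), CC-like cells (1285 cells, with *Cd83*) and recycling-like cells (565 cells, with *Srm* and other growth genes). Naive or memory B-like cells numbered 1822. Plasma-lineage cells formed 2 clusters, named by whether the Ig share of the cluster was over 50%, Ig-high PC-like (1465 cells) and Ig-lower PC-like (597 cells). This is a split of clusters, not of single cells. Cells outside the B lineage were T cell-like (541), monocyte-like (547), macrophage-like (61), dendritic cell-like (61) and neutrophil-like (59). The defining macrophage markers *C1qa*, *C1qb*, *C1qc*, *Vcam1* and *Slc40a1* led the macrophage-like cluster. The monocyte-like cluster was led by *Lyz2*, the only monocyte marker among its top 10 genes.

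One further B cell cluster of 3372 cells received no name. Its leading genes were haemoglobin transcripts followed by *Pxdc1*, *Gsn* and *Cyp4f18*, and it is called the unnamed B cluster here. It carried the pan-B gene *Cd79a* at 2524 CPM on average over libraries, against 1541 CPM in CB-like cells. The GC genes *Rgs13* (709 CPM) and *S1pr2* (162 CPM, which confines B cells to the GC) were at levels near those of CB-like cells (565 and 110.0 CPM). *Cd83*, a marker of CC-like cells, stood at 375 CPM, between CB-like (109 CPM) and CC-like cells (916 CPM). *Pxdc1* (141 CPM) and *Cyp4f18* (179 CPM) were also found in naive or memory B-like cells (133 and 117 CPM). The naive cell gene *Ighd* was at 38.8 CPM, against 353 CPM in naive or memory B-like cells. Dividing cell genes were low: *Mki67* stood at 27.8 CPM against 402 CPM in CB-like cells, and *Ccnb1*, the mitotic cyclin, at 11.4 against 452 CPM. Haemoglobin made up 13.4% of its UMIs in *Smc3* +/- replicate 2 and 0.011% to 0.35% in the other libraries.

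Macrophage-like cells had the highest *Apoe* level of any class in 6 of 6 libraries. The level was 4835, 9955 and 10072 CPM in WT replicates 1 to 3 and 11256, 7521 and 6502 CPM in *Smc3* +/- replicates 1 to 3. Only *Smc3* +/- replicate 2 had more than 20 such cells (21 cells, 12.1 *Apoe* UMIs per cell), so a mean over libraries is not given. Every macrophage-like cell had at least 1 *Apoe* UMI before thinning. Despite this level the class held 1.16% of all *Apoe* UMIs, because it was 0.293% of the cells. Monocyte-like cells stood at 1102 CPM in *Smc3* +/- replicate 2, where nearly all of them were found, and between 924 and 7099 CPM in the other libraries, which had 6 to 15 such cells each. Their *Apoe* was unevenly spread: 28.5% of the monocyte-like cells of *Smc3* +/- replicate 2 had an *Apoe* UMI before thinning, and 29 of the 547 cells in all libraries, those with 20 or more UMIs, held 54.4% of the class's *Apoe* UMIs. Dendritic cell-like cells of that library had 159 CPM and neutrophil-like cells 9.54 CPM, the only library with 20 or more cells of either class.

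GC B cells held most of the *Apoe* transcripts in the data. CB-like cells contributed 29.5% of all *Apoe* UMIs, S-phase GC B-like cells 30.3%, the unnamed B cluster 22.4% and CC-like cells 5.70%. The same classes were 28.2%, 21.5%, 16.2% and 6.18% of the cells.

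**Figure D1:**
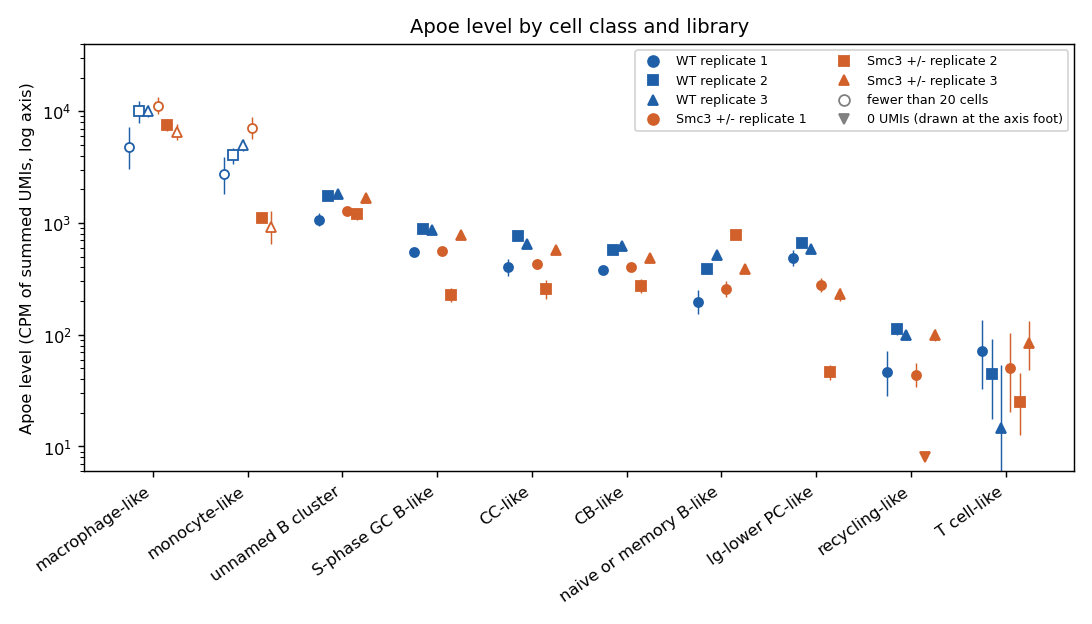
*Apoe* level (CPM of summed UMIs, log axis) in each cell class, with 1 symbol per library, WT and *Smc3* +/- in separate colours. Open symbols mark fewer than 20 cells and a downward triangle marks 0 UMIs. Macrophage-like cells sit between 4835 and 11256 CPM, the unnamed B cluster between 1071 and 1800.1 CPM, and recycling-like and T cell-like cells at or below 112 CPM.

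Among B cells the unnamed B cluster was highest. *Apoe* stood there at 1071, 1739.9 and 1800.1 CPM in WT replicates 1 to 3 and at 1272, 1208 and 1664 CPM in *Smc3* +/- replicates 1 to 3 (mean 1459 ± 312, SD, n = 6 libraries). With cells that carried any haemoglobin UMI left out, a choice made after seeing the data, the levels were 1181, 1660, 1805, 1343, 1509 and 1675 CPM in the same order. The level was as high without those cells.

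S-phase GC B-like cells came next, at 550.3, 885 and 867 CPM in the WT libraries and 560.3, 226 and 789 CPM in the *Smc3* +/- libraries (mean 646 ± 253, SD, n = 6). The unnamed B cluster was above them in 6 of 6 libraries and its range did not overlap theirs, the only neighbouring pair in the order of the classes for which this held. CC-like cells had 402, 759 and 654 CPM in the WT libraries and 429, 255 and 569 CPM in the *Smc3* +/- libraries (511 ± 184). CB-like cells had 383, 569 and 622 CPM in the WT libraries and 405, 275 and 484 CPM in the *Smc3* +/- libraries (456 ± 128). S-phase cells exceeded CC-like cells in 5 of 6 libraries and CC-like cells exceeded CB-like cells in 5 of 6, with mean differences within a library of 135 ± 90.1 and 55.0 ± 74.3 CPM (SD, n = 6), while the ranges over libraries overlapped. In each of the 3, *Smc3* +/- replicate 2 was the lowest library.

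Naive or memory B-like cells stood at 198, 389 and 512 CPM in the WT libraries and 257, 786 and 389.8 CPM in the *Smc3* +/- libraries (422 ± 209.8). Their range overlapped that of CB-like cells. The highest value was that of *Smc3* +/- replicate 2, in which 13 of 583 cells with 20 or more *Apoe* UMIs held 37.8% of the 1332 *Apoe* UMIs of the class. The other cells of that library stood at 504 CPM. In CC-like cells with a *Myc* UMI, the transcript that marks recent T cell help, *Apoe* stood at 484 CPM on average against 527 CPM in those without, and was higher in 3 of 6 libraries. After thinning to equal depth, as described below, 45.8% and 43.1% of these cells had an *Apoe* UMI, with the former higher in 5 of 6. Naive or memory B-like cells with an *Ighd* UMI were higher in 3 of 6 libraries than those without (436 and 417 CPM), but in 1 of 6 by the thinned share (26.0% and 28.8%).

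Recycling-like cells were the low point of the GC. *Apoe* stood at 46.1, 112 and 99.9 CPM in WT replicates 1 to 3 and at 44.1, 0 and 99.4 CPM in *Smc3* +/- replicates 1 to 3 (67.0 ± 43.9, SD, n = 6). The value of 0 in *Smc3* +/- replicate 2 rested on 27 cells, which allows a share of up to 11.1% of cells with an *Apoe* UMI. This range lay wholly below that of CB-like, S-phase and CC-like cells, and below Ig-lower PC-like cells in 6 of 6 libraries. Recycling-like cells were the deepest of the GC cells, with median totals of 12873 to 22586 UMIs per cell against 4278 to 7246 in CB-like cells. Per cell the gap was smaller. Recycling-like cells had 1.35 ± 1.02 *Apoe* UMIs and CB-like cells 3.31 ± 1.50 (mean ± SD over 6 libraries), the ranges overlapped, and CB-like cells were higher in 6 of 6 libraries. Without integration of the libraries before clustering, the recycling-like class took in more cells and its mean was 211 CPM.

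T cell-like cells, which are not known as a source of ApoE, measure the background. They stood at 70.8, 44.2 and 14.7 CPM in the WT libraries and 50.8, 25.2 and 83.6 CPM in the *Smc3* +/- libraries (48.2 ± 26.2). Recycling-like cells were above T cell-like cells in 3 of 6 libraries on this scale, which divides by the total UMIs of cells of very different depth. Counted per cell, T cell-like cells had 0.12, 0.0854 and 0.0364 *Apoe* UMIs in the WT libraries and 0.0805, 0.0738 and 0.183 in the *Smc3* +/- libraries. Recycling-like cells had 0.606, 2.17 and 2.47 in the WT libraries and 0.786, 0 and 2.10 in the *Smc3* +/- libraries, which was more in 5 of 6 libraries.

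To compare the share of cells with an *Apoe* transcript at equal depth, each cell was thinned to 2000 UMIs and shallower cells were left out. In the unnamed B cluster, 69.4%, 81.1% and 83.5% of the cells of WT replicates 1 to 3 then had an *Apoe* UMI, and 68.5%, 56.1% and 79.3% of those of *Smc3* +/- replicates 1 to 3. The shares in S-phase cells were 51.9%, 65.4% and 67.7% in the WT libraries and 51.1%, 32.5% and 60.3% in the *Smc3* +/- libraries. CB-like cells had 45.1%, 57.9% and 61.3% in the WT libraries and 46.3%, 22.2% and 52.2% in the *Smc3* +/- libraries. Within each library the unnamed B cluster thus had the highest share of the 3 classes and CB-like cells the lowest. CC-like cells had 21.5% to 55.7% and naive or memory B-like cells 14% to 36.2%.

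The T cell-like share was 4% to 11.8%, over 10 to 60 cells per library deep enough to be thinned, at median depths of 1207 to 1948 UMIs before thinning. On so few cells it is loosely known, with an exact 95% interval of 0.253% to 44.5% in WT replicate 1. Without thinning, it was 2.67% to 7.53%, against 32.8% to 86.0% in CB-like cells. CB-like, S-phase, CC-like, naive or memory B-like cells and the unnamed B cluster were above the T cell-like share of their own library in 6 of 6 libraries. Recycling-like cells (9.09%, 16% and 14.6% in the WT libraries and 9.52%, 0% and 15.7% in the *Smc3* +/- libraries) were at or below it in WT replicate 1 and *Smc3* +/- replicates 1 and 2. Thinning discards most UMIs of these deep cells and few of those of T cell-like cells. Unthinned, 21.2%, 52.0% and 56.9% of recycling-like cells of the WT libraries and 31.0%, 0% and 53.0% of those of the *Smc3* +/- libraries had an *Apoe* UMI, above the unthinned T cell-like share in 5 of 6 libraries.

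**Figure D2:**
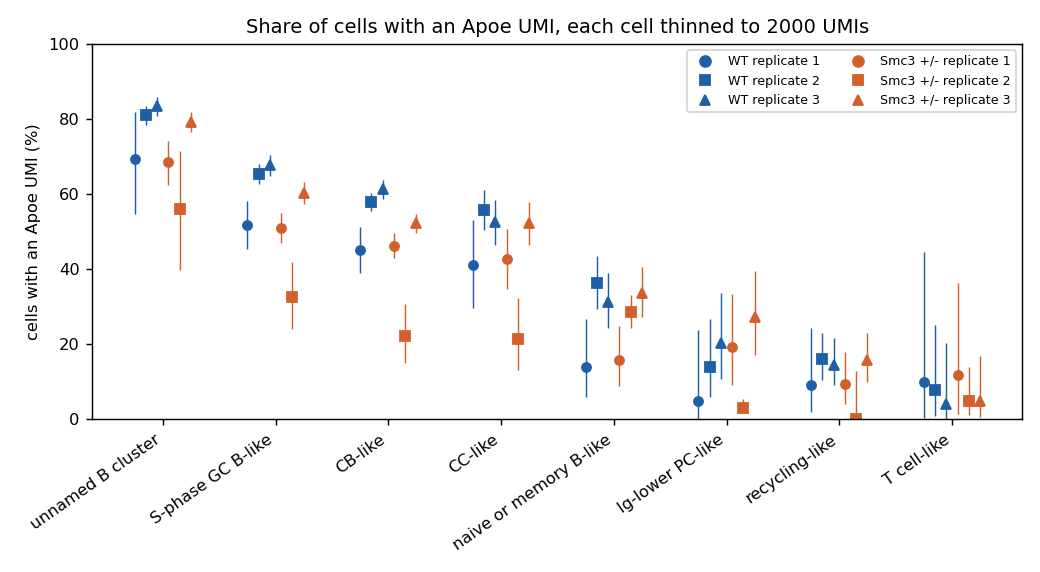
Share of cells with at least 1 *Apoe* UMI (%) in each class after every cell was thinned to 2000 UMIs, 1 symbol per library. The unnamed B cluster reaches 56.1% to 83.5%, S-phase cells 32.5% to 67.7%, and T cell-like cells stay at or below 11.8%.

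GC B cells had few macrophage transcripts beside their *Apoe*. In macrophage-like cells there were 0.434 to 0.737 *Apoe* UMIs for each UMI of *C1qa*, *C1qb* and *C1qc* together, the complement C1q genes of macrophages. In CB-like cells the ratio was 308.5, 571 and 1012 in the WT libraries and 224, 99.5 and 962 in the *Smc3* +/- libraries, on C1q totals of 2 to 12 UMIs. Cells without any macrophage marker UMI had nearly the same level. For CB-like cells it was 376, 571 and 634 CPM in the WT libraries and 416, 295 and 501 CPM in the *Smc3* +/- libraries. For the unnamed B cluster it was between 1052 and 1794 CPM. Markers of follicular dendritic cells, the stromal cells of the light zone, were low in CB-like cells and, apart from *Clu*, in the unnamed B cluster. *Cxcl13* stood at 0.0138 CPM in CB-like cells and 0.260 CPM in the unnamed B cluster, and *Madcam1* at 0.103 and 0 CPM. *Clu* averaged 0.0717 CPM in CB-like cells and 4.99 CPM in the unnamed B cluster, where it ranged from 0 to 24.4 CPM over libraries, and its part in the *Apoe* level was not tested.

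Within a GC class, *Apoe* moved with the depth of the cell. In S-phase cells with under 4000 UMIs it stood at 884, 1449 and 1369 CPM in the WT libraries and 909, 652 and 1383 CPM in the *Smc3* +/- libraries. In those with 8000 to 16000 UMIs it stood at 293, 581 and 656 CPM and at 323, 75.1 and 445 CPM. The shallower cells were higher in 6 of 6 libraries, with means of 1108 ± 334 and 395 ± 211 CPM (SD, n = 6). CB-like cells gave 619 ± 198 and 377 ± 185 CPM for the same split, again higher in the shallower cells in 6 of 6 libraries. CC-like cells gave 853 ± 226 and 306 ± 179 CPM, also in 6 of 6, although the deeper bin held as few as 3 cells in a library. The thinned shares went the same way, at 65.9% and 39.6% in S-phase cells and 53.8% and 39.3% in CB-like cells. The fall was not even in every library. CB-like cells with 4000 to 8000 UMIs stood at 858 CPM in WT replicate 3, above both 672 CPM under 4000 and 643 CPM at 8000 to 16000. In *Smc3* +/- replicate 2 they stood at 424 CPM, above 264 and 148 CPM. The unnamed B cluster was itself shallow, with median totals of 1834 to 3532 UMIs per cell, and its mean of 1459 CPM stood beside 1108 CPM in the shallow S-phase cells. The depth bins also draw on different clusters of a class, since the S-phase clusters had median totals of 5272 and 10194 UMIs and stood at 1051 and 351 CPM. Across the CB-like clusters the order was not one of depth alone, with 517 CPM in the shallowest cluster (4215 UMIs) and 709 and 618 CPM in deeper ones (6093 and 7678 UMIs). Within single clusters, a comparison added after seeing the data, cells under 4000 UMIs were higher than those with 8000 to 16000 in each of the 2 to 4 libraries with 20 cells or more in both bins. This held for the 5 clusters that had such libraries, with means of 1307 and 786 CPM in the larger S-phase cluster and 893 and 541 CPM in the largest CB-like cluster. A smaller cell and a cell that was less well captured cannot be told apart in these counts.

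**Figure D3:**
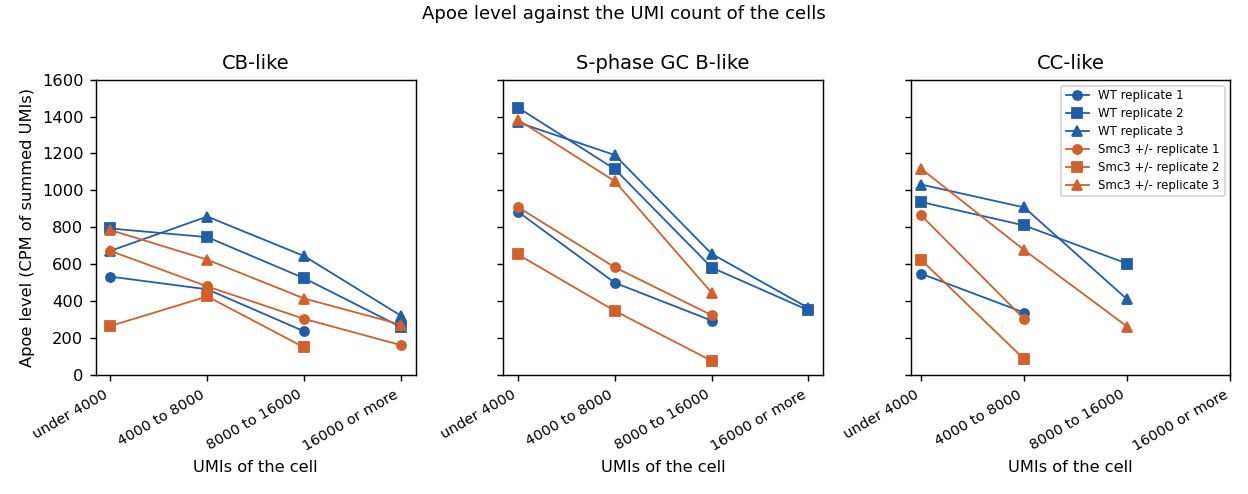
*Apoe* level (CPM of summed UMIs) in CB-like, S-phase GC B-like and CC-like cells binned by the total UMIs of the cell, 1 line per library, with bins of fewer than 20 cells left out. Means fall from 1108 CPM under 4000 UMIs to 395 CPM at 8000 to 16000 UMIs in S-phase cells and from 619 to 377 CPM in CB-like cells. In CB-like cells of WT replicate 3 and *Smc3* +/- replicate 2 the bin of 4000 to 8000 UMIs is the highest.

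Ig-lower PC-like cells stood at 489, 657 and 589.6 CPM in WT replicates 1 to 3 and at 281, 46.2 and 231 CPM in *Smc3* +/- replicates 1 to 3 (382 ± 235, SD, n = 6). *Smc3* +/- replicate 2 was the lowest library here too. Ig-high PC-like cells had 18.2 CPM in WT replicate 3 and 11 CPM in *Smc3* +/- replicate 2, the 2 libraries with 20 or more of them. With Ig UMIs left out of the total these values were 81.3 and 55.3 CPM, against 14.9 and 26.6 CPM in T cell-like cells. With Ig included, 11 CPM lies below the T cell-like value. In WT replicate 3 the comparison rested on 7 and 2 *Apoe* UMIs. Leaving out Ig-high PC-like cells with a macrophage marker UMI kept all 7. In *Smc3* +/- replicate 2 it took 236 *Apoe* UMIs to 119, and 11 CPM to 6.31 CPM with Ig included. These values do not place Ig-high PC-like cells above background. WT replicate 2 had 1042 CPM in 17 Ig-high PC-like cells, and a single cell held 235 of their 251 *Apoe* UMIs. After thinning, 4.76%, 14% and 20.4% of the Ig-lower PC-like cells of the WT libraries and 19.1%, 3.13% and 27.3% of those of the *Smc3* +/- libraries had an *Apoe* UMI. WT replicate 1 and *Smc3* +/- replicate 2 were below the T cell-like share of their library. Unthinned, they were above it, at 9.09% against 2.67% and 8.17% against 6.04%. The 1 cell of WT replicate 1 with an *Apoe* UMI after thinning had 138 of them before it. Most Ig-lower PC-like cells thus had no *Apoe* UMI at this depth. The level of the class was above that of CB-like cells in WT replicates 1 and 2, and below it in WT replicate 3 and the 3 *Smc3* +/- libraries.

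A few plasma-lineage cells carried 90.1% or more of the *Apoe* UMIs of that lineage in the WT libraries and 46.1% to 71.9% in the *Smc3* +/- libraries. Cells with 20 or more *Apoe* UMIs, a threshold set after the values had been seen, are called *Apoe*-rich. In WT replicate 1 a single *Apoe*-rich cell of 34 held 138 of the 142 *Apoe* UMIs, and the next cell had 2. In WT replicate 2, 5 of 67 cells held 788 of 849 UMIs, with 73 UMIs in the lowest of them and 17 in the highest of the rest. WT replicate 3 had 6 *Apoe*-rich cells of 77, holding 635 of 705 UMIs, with 28 UMIs in the lowest and 19 in the highest of the rest. The share held by *Apoe*-rich cells was 97.2%, 92.8% and 90.1% in the WT libraries.

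In *Smc3* +/- replicate 1, 5 of 59 plasma-lineage cells held 133 of 185 *Apoe* UMIs, with 20 UMIs in the lowest and 15 in the highest of the rest. In *Smc3* +/- replicate 2, 5 of 1743 cells held 181 of 393 UMIs, and 14 UMIs was the highest count below the threshold. In *Smc3* +/- replicate 3, 3 of 82 cells held 125 of 238 UMIs, with 25 UMIs in the lowest and 14 in the highest of the rest. The shares were 71.9%, 46.1% and 52.5%. The highest single counts were 138, 235 and 267 UMIs in the WT libraries and 33, 73 and 67 UMIs in the *Smc3* +/- libraries.

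The 6 cells with the most *Apoe* UMIs of all 20809 were plasma-lineage cells of the WT libraries, with 267, 235, 221, 185, 158 and 138 UMIs. These cells had 0 to 2 macrophage marker UMIs each. The next was a monocyte-like cell of *Smc3* +/- replicate 2 with 113 *Apoe* UMIs and 49 C1q UMIs. Of the 5 *Apoe*-rich plasma-lineage cells of that library 1 held macrophage marker UMIs, 14 in all, of which 9 were C1q UMIs. These 5 cells also held 4 *Lyz2* UMIs. Macrophage marker UMIs were found in 0 of 1, 2 of 5 and 4 of 6 *Apoe*-rich cells of WT replicates 1 to 3. In *Smc3* +/- replicates 1 and 3 they were found in 2 of 5 and 1 of 3. Of all Ig-lower PC-like cells, 2 of 22, 10 of 50 and 18 of 55 carried one in the WT libraries. The *Smc3* +/- libraries had 13 of 47, 48 of 355 and 12 of 68. Unlike in the plasma lineage, *Apoe*-rich cells held 12.6% of the *Apoe* UMIs of CB-like cells, 17.7% of those of S-phase cells and 12.5% of those of the unnamed B cluster, where the transcript was spread over many cells.

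**Figure D4:**
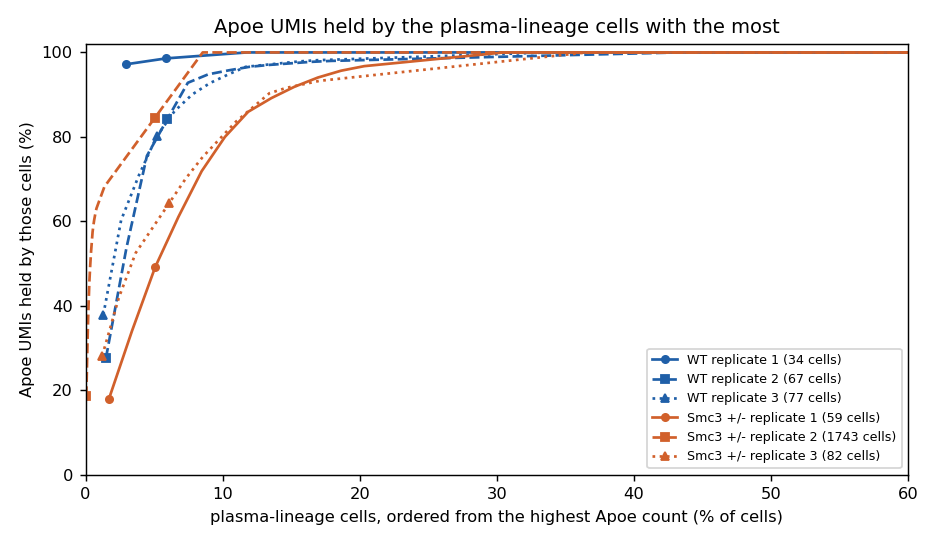
Share of all plasma-lineage *Apoe* UMIs (%) held by the cells with the most, ordered from the highest count (% of plasma-lineage cells), 1 line per library. In the WT libraries the *Apoe*-rich cells, 2.94% to 7.79% of the cells, hold 90.1% to 97.2% of the UMIs.

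The *Apoe*-rich plasma-lineage cells differed from the rest in more than *Apoe*. Levels in this paragraph are CPM with Ig UMIs left out, in a group of cells picked by *Apoe*, and are a description. *Cd79a*, a signalling subunit of the B cell receptor, stood at 7508, 6204 and 2059.9 CPM in the *Apoe*-rich cells of the WT libraries and 4320.4, 7054 and 5965 CPM in those of the *Smc3* +/- libraries. In the rest it stood between 739 and 2774 CPM, lower in 6 of 6 libraries. *Tnfrsf17*, which encodes the plasma cell survival receptor BCMA, had 0 UMIs in the *Apoe*-rich cells of 5 libraries, 1 to 6 cells each, and stood at 70.6 to 159 CPM in the rest of those libraries. In *Smc3* +/- replicate 2 it stood at 137 CPM in the *Apoe*-rich cells and 751 CPM in the rest. *Xbp1* (983 to 2123 CPM) and *Mzb1* (3032 to 11417 CPM), both needed for antibody secretion, were present in the *Apoe*-rich cells of every library. In the rest *Xbp1* stood at 2386, 1716 and 1839 CPM in the WT libraries and 2034, 4696 and 1832 CPM in the *Smc3* +/- libraries, higher than in the *Apoe*-rich cells in 5 of 6. *Mzb1* went both ways, lower in the *Apoe*-rich cells in 4 libraries and higher in WT replicates 2 (9996 against 7037 CPM) and 3 (11417 against 5514 CPM).

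With *Smc3* +/- replicate 2 left out, *Prdm1*, which encodes the plasma cell regulator Blimp-1, had a UMI in 12 of 20 *Apoe*-rich cells (60%) and in 116 of the 299 others (38.8%). *Sdc1*, the plasma cell surface protein CD138, had a UMI in 7 of 20 (35%) and in 196 of 299 (65.6%). *Ms4a1*, which encodes CD20, had a UMI in 18 of 20 (90%) and in 179 of 299 (59.9%), although the *Apoe*-rich cell of WT replicate 1 had none. *Irf4* (40% and 42.1%) and *Pax5* (10% and 7.69%) were closer in the 2 groups. These cells were pooled over libraries and both genotypes and are not replicates. *Bcl6*, the GC regulator, had none in the 20 cells, which allows a share of up to 15%, and 4.01% in the others. The *Apoe*-rich cells were shallower, with median totals of 5874 to 10412 UMIs against 11615 to 19522 in the rest, and this was not matched for. With the *Apoe*-rich cells set aside, plasma-lineage *Apoe* stood at 10.0, 55.4 and 46.8 CPM in the WT libraries and 71.4, 8.53 and 103 CPM in the *Smc3* +/- libraries, and the genotypes overlapped. The cells set aside were picked by their own *Apoe* count, so this overlap cannot show whether the genotypes differ.

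The study asked what loss of an *Smc3* copy does to GC B cells on their way to plasma cells. *Apoe* was compared between genotypes within each class on UMIs summed per library (edgeR quasi-likelihood test, Benjamini-Hochberg adjustment over all genes tested). The difference was largest in plasma-lineage cells. *Apoe* stood there at 349, 738 and 449.7 CPM in WT replicates 1 to 3 and at 244, 15.8 and 211 CPM in *Smc3* +/- replicates 1 to 3. With Ig UMIs left out of the total the levels were 543, 1035 and 634 CPM and 319, 65.7 and 290.0 CPM, in the same order of libraries. The log2 fold change was -1.75 (SE 0.50, 95% limits -2.90 to -0.60, unadjusted p = 0.0077) and the adjusted p over 5927 genes was 0.833, so the call was not passed. All 3 WT libraries were above all 3 *Smc3* +/- libraries, an arrangement that 3.39% of the 5927 genes shared in that direction. The mix of cells differed, with 1388 of the 1743 cells of *Smc3* +/- replicate 2 in the Ig-high cluster against 12 of 34, 17 of 67 and 22 of 77 in the WT libraries and 12 of 59 and 14 of 82 in the other *Smc3* +/- libraries. With cells that carried a macrophage marker UMI left out, Ig-lower PC-like cells stood at 571, 263 and 233 CPM in the WT libraries and at 264, 52.0 and 191 CPM in the *Smc3* +/- libraries, and the genotypes overlapped. Without the filter on low counts the adjusted p was 0.0441 at a log2 fold change of -1.76, within a range of 0.0441 to 0.980 over the alternative settings and up to 1.0 with 1 library left out. Without *Smc3* +/- replicate 2, which held most of these cells, the log2 fold change was -1.34 (SE 0.28, adjusted p = 0.596). Between 46.1% and 97.2% of the summed *Apoe* UMIs of a library came from its few *Apoe*-rich cells.

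In the GC classes the *Smc3* +/- mean was lower in each case and no difference passed the test. The log2 fold change was -0.41 (SE 0.25, 95% limits -0.99 to 0.16) in CB-like cells, with group means of 524 ± 126 and 388 ± 106 CPM (SD, n = 3 each). It was -0.54 (SE 0.38, limits -1.40 to 0.32) in S-phase cells, -0.50 (SE 0.30, limits -1.16 to 0.16) in CC-like cells and -0.64 (SE 0.51, limits -1.76 to 0.48) in recycling-like cells. The edgeR adjusted p was 1.0 in all 4. The sizes moved with single libraries. Without *Smc3* +/- replicate 2 the S-phase value was -0.22 and the recycling-like value -0.38, and without *Smc3* +/- replicate 3 they were -0.98 and -1.67. In the unnamed B cluster, a comparison added after the clusters had been seen, the log2 fold change was -0.03 (SE 0.31, limits -0.71 to 0.64), and its sign was positive under several alternative settings.

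Naive or memory B-like cells gave the only higher mean in *Smc3* +/- libraries, at a log2 fold change of 0.42 (SE 0.49, limits -0.67 to 1.51, adjusted p = 1.0). Without *Smc3* +/- replicate 2 it was -0.27 (SE 0.38, adjusted p = 1.0). Over all kept cells, *Apoe* stood at 418, 752 and 749 CPM in the WT libraries and at 457, 135 and 641 CPM in the *Smc3* +/- libraries, a log2 fold change of -0.41 (SE 0.36, limits -1.28 to 0.45, adjusted p = 0.927). With Ig UMIs left out of the total these levels were 437, 773 and 772 CPM in the WT libraries and 471, 341 and 658 CPM in the *Smc3* +/- libraries, so the value of *Smc3* +/- replicate 2 moved with the Ig share of its UMIs.

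The background for these comparisons was low. With edgeR, 0% of 11840 genes were called in all kept cells, and 0 genes in 6 of the 7 classes tested (10087 genes in CB-like cells and 5927 in plasma-lineage cells, for example). The unnamed B cluster had 1 gene of 8006 called (0.0125%), the interferon-induced *Ifi27*, which was higher in *Smc3* +/- libraries by 1.19 on the log2 scale (SE 0.16, adjusted p = 0.0341) and is named here after its value was seen. At an unadjusted p under 0.05 there were 184 genes in all kept cells and between 124 and 242 in the classes. DESeq2 called 0 genes in all but S-phase cells, where it called 1.

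The share of cells with an *Apoe* UMI after thinning gave no call either. In CB-like cells it was 54.8% ± 8.52 in WT and 40.2% ± 15.9 in *Smc3* +/- libraries (SD, n = 3 each, exact two-sided permutation p = 0.3, Benjamini-Hochberg adjusted over 8 comparisons 0.6). In S-phase cells it was 61.7% ± 8.57 and 47.9% ± 14.2 (exact permutation p = 0.2, adjusted 0.6). In the unnamed B cluster it was 78.0% ± 7.56 and 68.0% ± 11.6 (exact permutation p = 0.2, adjusted 0.6). With same-numbered libraries taken as pairs, the share was lower in *Smc3* +/- in 3 of 3 pairs in S-phase cells and in the unnamed B cluster, where the numbers did not meet the check for pairing, and in 2 of 3 in CB-like cells (exact sign-flip permutation p = 0.25, 0.25 and 0.5, where 0.25 is the smallest that 3 pairs allow). Plasma-lineage cells had 11.4% ± 4.63 and 13.8% ± 10.8 (exact permutation p = 0.8, adjusted 0.8), a difference that turned to -4.39 points without thinning. With 3 libraries against 3 the smallest p possible is 0.1, and no such test could pass 0.05.

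**Figure D5:**
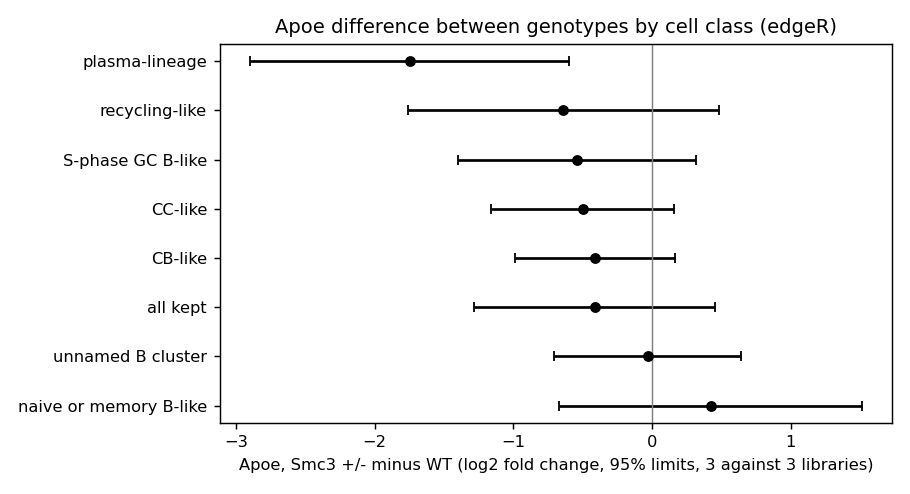
Log2 fold change of *Apoe*, *Smc3* +/- minus WT, in each class (points, edgeR on UMIs summed per library) with 95% limits (bars), 3 against 3 libraries. Plasma-lineage cells sit at -1.75 with limits of -2.90 to -0.60, and the limits of the other classes include 0.

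The neighbours of *Apoe* on chromosome 7 differed among themselves in their order of classes. *Tomm40* was highest in recycling-like cells (344 CPM on average over libraries), where *Apoe* was lowest among GC classes, and stood at 127 CPM in CB-like cells and 114 CPM in the unnamed B cluster. The apolipoprotein genes of the cluster were sparse, and *Apoc1*, *Apoc2* and *Apoc4* had 109, 12 and 201 UMIs over all kept cells. On these few UMIs *Apoc4* averaged 3.19 CPM in the unnamed B cluster, 1.73 in CB-like, 1.69 in S-phase, 0.824 in CC-like and 0.0493 in recycling-like cells. *Apoc1* had 29.5 CPM in macrophage-like cells, which is 1 UMI, and 0.502 CPM in CB-like cells. *Apoc2* and *Apoc4* both overlap the gene model *Gm44805* on the same strand, so their counts are uncertain. *Nectin2* had 70 UMIs in all, while *Clptm1* lay between 69.8 and 85.2 CPM in CB-like, S-phase, CC-like and recycling-like cells and the unnamed B cluster. *Relb*, the NF-κB subunit at the end of the cluster, had 72.7 CPM in CC-like cells and 23.9 CPM in CB-like cells.

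Genes of ApoE uptake and cholesterol efflux were mostly genes of macrophages in these cells. *Lrp1*, a large receptor for ApoE particles, stood at 354 CPM in macrophage-like and 65.3 CPM in monocyte-like cells and at or below 0.266 CPM in the B-lineage classes. *Vldlr*, another receptor, had 0 UMIs. *Sorl1*, a sorting receptor that binds ApoE, was at 41.3 CPM in CB-like cells and 65.1 CPM in the unnamed B cluster. *Abca1* and *Abcg1*, the efflux pumps that load ApoE with lipid, stood at 118 and 177 CPM in macrophage-like cells and at 1.04 and 1.08 CPM in CB-like cells. *Nr1h3* (LXRα) had 118 CPM in macrophage-like cells and 0.233 CPM in CB-like cells, whereas *Nr1h2* (LXRβ) was at 41.1 CPM in CB-like cells and 46.5 CPM in the unnamed B cluster. The macrophage-like values rest on the 21 cells of *Smc3* +/- replicate 2, in which 1 UMI is 29.5 CPM.

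None of these genes that could be tested was called between genotypes in any class. With edgeR, 0 of the 7 tested members of the *Apoe* gene cluster (*Apoe* included), 0 of 5 ApoE receptors, 0 of 10 efflux and LXR genes and 0 of 17 sterol synthesis genes passed over all kept cells, and likewise 0 members of any list passed in the 7 classes. Their median log2 fold changes over all kept cells were -0.12, -0.11, 0.73 and -0.21, beside 0.00087 over all genes tested. The value of 0.73 is that of the efflux and LXR genes, and 495 of the 547 monocyte-like cells lay in *Smc3* +/- replicate 2. The median of the same genes was 0.36 within plasma-lineage cells and between -0.12 and 0.06 within the other 6 classes tested. Fewer list members could be tested within classes. Of the 8 ApoE receptors, 0 were tested in plasma-lineage and 1 in naive or memory B-like cells. Of the 13 efflux and LXR genes, 3 were tested in plasma-lineage and 3 in CC-like cells.

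The genes whose levels went most like those of *Apoe* over 55 sums of class and library were *Slc15a4* (r = 0.82), *Cerk* (r = 0.80), *Gngt2* (r = 0.80), *Lgmn* (r = 0.79), *Apobec1* (r = 0.77), *Epb41l2* (r = 0.77), *Snx29* (r = 0.77) and *Lyn* (r = 0.75), of 7048 genes compared (Pearson r of log2(CPM + 10)). *Slc15a4* encodes a lysosomal histidine transporter, *Lgmn* a lysosomal protease, *Cerk* ceramide kinase and *Lyn* a Src-family kinase of the B cell receptor. Over the 45 sums of the B-lineage classes alone, the closest of 6731 genes were *Cerk* (r = 0.87), *Arl5c* (r = 0.86), *Atp6v0d1* (r = 0.86), *Gabarapl2* (r = 0.85), *Laptm5* (r = 0.84), *A530040E14Rik* (r = 0.83), *Cd79b* (r = 0.83) and *Rit1* (r = 0.83). *Atp6v0d1* is a subunit of the proton pump of lysosomes, *Gabarapl2* an autophagy protein and *Laptm5* a lysosomal membrane protein. *Cerk* was on both lists, and its level was 99.6 CPM in the unnamed B cluster and 16 CPM in recycling-like cells. The sums share libraries, depth and cell composition, so they are not independent points and the correlations carry no p. Of the sterol synthesis genes compared over the 55 sums, the closest was *Srebf2*, their master regulator (r = 0.47).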

How the data were processed

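Libraries were made by the authors with the 3′ v2 chemistry of 10x Genomics, and their reads were processed in Cell Ranger 3.0.2. The submitters' processing notes also name the mm10 build, R 4.0.2 and Seurat 4.0.0. The deposited values were whole UMI counts per gene and cell barcode, not normalized, for barcodes called as cells. The deposited counts of all 6 libraries were used. Additional wild-type libraries that the study integrated were not analysed here.

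Cells needed 500 detected genes or more and a mitochondrial share of 10% or less (21568 of 22939 barcodes passed), and the 759 highest Scrublet scores (3.52%, at 0.8% per 1000 barcodes, scanpy 1.11.5) were removed as doublets. Clustering used Seurat 5.3.0 in R 4.3.3 with reciprocal PCA integration (30 components, 20 neighbours, resolution 0.5) on 1876 genes, leaving out *Apoe*, the lipid gene lists, *Smc3* and Ig, mitochondrial and ribosomal genes. Of the 18 clusters, those named had at least 3 detected markers, and non-B names required *Cd79a* to be no higher than 25% of the median cluster. The scoring rule was written after the clusters were seen, so rebuilt names can be a source of differences from the study. The gene, the lists and the tests were chosen with earlier results of these data known.

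UMIs were summed per library and class and tested with edgeR 4.0.16 (TMM, filterByExpr, quasi-likelihood, threshold 0.05) where every library had at least 20 cells. Libraries were the replicates, and p-values measure only the spread between them, which may be technical. Shares were compared by exact permutation tests. Intervals are at 95%, exact, and cover counting error only, and a count of 0 was taken to allow 3 counts. Genes named were *Apoe*, 4 lists (gene cluster, ApoE receptors, efflux and LXR, sterol synthesis), *Smc3*, macrophage markers, and the 8 genes with the highest r with *Apoe* among those with a mean of at least 10 CPM. Marker genes named beside *Apoe*-rich cells and in the unnamed cluster were chosen after their values were seen. Coordinates came from GENCODE M21 on GRCm38. Scripts were tested on simulated data. The alternatives were DESeq2 1.42.0, RLE size factors, no low-count filter, a fit blocked on replicate number, a fit without Ig genes, doublets kept, resolution 1, no integration, thinning to 1000 UMIs or none, and each library left out. Sex as a covariate, same-numbered libraries as pairs for the shares, depth bins within clusters, haemoglobin-bearing cells left out and all tests in the unnamed cluster were added after seeing the data.

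Libraries share replicate numbers across genotypes. Same-numbered libraries deviated together with every r over 0.1 in naive or memory B-like (0.337, 0.252 and 0.106), CB-like (0.215, 0.115 and 0.141) and S-phase cells (0.248, 0.123 and 0.183). The other classes did not meet this.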

Additional observations from a re-analysis of the deposited data

How the results depend on the processing

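Of the 117 recomputed genotype differences in *Apoe* level, 109 kept their direction and their side of the threshold. The plasma-lineage difference passed without the low-count filter (-1.76, adjusted p = 0.0441). In naive or memory B-like cells the sign turned without *Smc3* +/- replicate 2 (-0.27). In the unnamed B cluster it turned to 0.013 with the replicate block, 0.017 at resolution 1, 0.042 without integration, and 0.11, 0.13 and 0.10 without WT replicates 2 and 3 and *Smc3* +/- replicate 1. The cause was not tested. With 1 library left out, the log2 fold change ran from -0.71 to -0.25 in all kept cells, -0.63 to -0.25 in CB-like, -0.78 to -0.28 in CC-like, -0.98 to -0.22 in S-phase, -1.67 to -0.38 in recycling-like, -2.02 to -1.34 in plasma-lineage, -0.27 to 0.77 in naive or memory B-like cells and -0.29 to 0.13 in the unnamed B cluster. With the replicate number as a block, where same-numbered libraries were paired, the values were -0.39 in CB-like, -0.62 in S-phase and 0.36 in naive or memory B-like cells, and the block changed no call in any class. Sex as a covariate, added after seeing the data, gave -2.22 in plasma-lineage cells (adjusted p = 0.463). Genes called without the filter numbered 15 in CC-like, 16 in recycling-like, 21 in naive or memory B-like and 24 in plasma-lineage cells and 29 in the unnamed B cluster, against 0, 0, 0, 0 and 1 with it.

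Of 96 recomputed class levels 95 moved by less than 1 SD, and the exception was recycling-like cells without integration (211 CPM). Under that setting recycling-like cells had under 20 cells in a library, so the genotype test gave no value, and clustering settings do not apply to all kept cells. Shares depend on depth by construction. Without thinning they were 67.1% in CB-like, 72.2% in S-phase, 57.8% in CC-like, 35.7% in recycling-like and 30.4% in Ig-lower PC-like cells. Thinned to 1000 UMIs they were 40.5% in S-phase and 29.9% in CC-like cells and 60.2% in the unnamed B cluster. The genotype difference in the share turned to 2.96 (1000 UMIs) and 2.50 points (no thinning) in naive or memory B-like cells, and ran from -7.80 to 3.92 with 1 library left out. In plasma-lineage cells it turned to -4.39 points without thinning and ran from -2.61 to 8.11. The other leave-one-out ranges were -20.5 to -5.50 points in CB-like, -19.9 to -6.00 in S-phase, -17.7 to -2.35 in CC-like, -8.47 to -0.63 in recycling-like and -26.8 to -4.10 in all kept cells and -15.7 to -4.11 in the unnamed B cluster. WT replicate 1 was the shallowest library, and its classes rest on the fewest counts.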

Other observations

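A small cluster of 80 B cells led by interferon-response genes carried *Apoe* at 735 CPM in WT replicate 2, the only library with 20 or more of these cells (37 cells). The other libraries, with 3 to 19 cells each, lay between 488 and 1212 CPM, and *Smc3* +/- replicate 2 had none. The genes that went most against *Apoe* over the B-lineage sums were *Slc3a2* (r = -0.67), a subunit of amino acid transporters, *Mt1* (r = -0.65), a metallothionein, and *Tmem176b* (r = -0.64).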
